A study of Homo sapiens with 2 samples.

Results

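MicroRNAs known for their roles in blood vessel growth and in the endothelial response to low oxygen were followed here in a human brain endothelial cell line. The set holds the mature miRNAs cut from 4 hairpin precursors, hsa-mir-126, hsa-mir-210, hsa-mir-132 and hsa-mir-212, and its members were taken by precursor name, with no threshold on measured values, although earlier results of these data were known when the hairpins were picked. It has 7 mature names of 2042 in the table, and each of the 7 reached 10 counts in replicate 2 and in replicate 8, the minimum for calling a name detected. Small RNA was sequenced from hCMEC/D3, an immortalised clonal line derived from human brain microvascular endothelium that serves in studies of the blood-brain barrier. The extraction protocol in the labels speaks of tissue, whereas the samples are labelled as a cell line, and the latter was followed here. The series has 1 group of 2 libraries, numbered replicate 2 and replicate 8 by the submitters, both of the same line, and the labels give no treatment, oxygen level, time or passage. The libraries are not said to come from separate cultures, so the spread between them may be technical.

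A miRNA hairpin is cut into a short duplex, and 1 strand, from the 5p or the 3p side, is usually kept by an Argonaute protein as the guide, which finds target mRNAs mainly through its seed, bases 2 to 8. The miR-126 gene lies inside EGFL7, a gene of endothelial cells. Its 3p strand is a standard endothelial miRNA that represses SPRED1 and PIK3R2, brakes on signalling from vascular endothelial growth factor. Transcription of miR-210 is switched on by hypoxia-inducible factor, and the miRNA represses ISCU, an iron-sulphur cluster scaffold, and EFNA3, an ephrin ligand. In endothelium miR-132 is known for repressing RASA1, a brake on Ras, and it is transcribed together with miR-212 from a locus driven by the transcription factor CREB. Both have been linked to loss of tight junction proteins in brain endothelium.

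The hairpins are shown first, because the way each is divided between its arms is one of the results. They are the RefSeq sequences, 5′ to 3′, with the mature arms in capitals, and each matched the GRCh37 genome exactly at the place given. MIR126 lies at chr9:139565054-139565138 on the plus strand within introns of EGFL7, with an exon there in 0 of the 5 spanning transcripts. MIR210 lies at chr11:568089-568198 on the minus strand within introns of the lncRNA MIR210HG, where 9 transcripts span it without an exon. MIR132 lies at chr17:1953202-1953302 and MIR212 at chr17:1953565-1953674, both on the minus strand. They are 262 bases apart. The GENCODE annotation used has no gene overlapping either of them, and lacks the miRNA genes MIR132 and MIR212 themselves, so it cannot show whether a host transcript exists. The nearest protein-coding gene is HIC1, 3774 bases from MIR212 on the other strand.
MIR126: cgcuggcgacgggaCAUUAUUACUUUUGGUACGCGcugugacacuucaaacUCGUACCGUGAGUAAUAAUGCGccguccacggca
MIR210: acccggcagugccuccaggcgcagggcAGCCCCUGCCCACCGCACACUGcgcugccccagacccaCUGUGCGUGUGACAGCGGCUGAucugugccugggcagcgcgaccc
MIR132: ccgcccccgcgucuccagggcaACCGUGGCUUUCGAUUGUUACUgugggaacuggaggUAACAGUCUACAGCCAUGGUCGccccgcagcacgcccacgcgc
MIR212: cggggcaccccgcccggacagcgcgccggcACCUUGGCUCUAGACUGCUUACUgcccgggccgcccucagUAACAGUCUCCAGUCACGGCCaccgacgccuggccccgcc

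The mature arms follow in the order of their level, with the seed in capitals, to show which of them share one. The table has a single row for hsa-mir-210, named miR-210 without an arm. This is the older name of the 3p strand, whose RefSeq sequence is printed, and the 5p strand of that hairpin was not analysed here.
miR-126-3p: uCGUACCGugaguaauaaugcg
miR-126-5p: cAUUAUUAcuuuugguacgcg
miR-210: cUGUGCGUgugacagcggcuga
miR-132-3p: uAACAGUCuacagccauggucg
miR-132-5p: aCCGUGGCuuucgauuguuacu
miR-212-5p: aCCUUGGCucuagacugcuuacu
miR-212-3p: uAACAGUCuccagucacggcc

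The seed AACAGUC was shared by miR-132-3p and miR-212-3p. The seeds of the other 5 arms occurred in no other of the 2370 RefSeq mature names. Counted from the 5′ end, the first 9 bases of miR-132-3p and miR-212-3p are identical, and over the 21 bases that both have they differ by A10C, C14U, U17C and U20C, the miR-132-3p base being given first. The 5p arms are further apart. They share only the first 3 bases, and G4U, the first of 8 differences over 22 bases placed side by side without gaps, falls inside the seed. A read of 1 hairpin of the pair can therefore be told from a read of the other at several positions. No other row of the table had the same counts as a member arm in both libraries. Every arm had a single row, so no member name was repeated under another hairpin as many names of this table are. Reads shared with a differently named row at unequal counts would not be found in this way.

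The set was dominated by 1 strand, miR-126-3p, whose count was 4443-fold that of the lowest arm, miR-212-3p, in replicate 2 and 4129-fold in replicate 8. Raw counts were scaled to CPM (counts scaled to a common library total), and the total was 2721287 in replicate 2 and 2727675 in replicate 8 with 1 row per mature name. The 4 hairpins took 302168 counts in replicate 2, or 11.1% of the library, and 318459 in replicate 8, or 11.7%. Of these counts hsa-mir-126 held 99.16% and 99.13%. Levels of different miRNAs within a library also carry the efficiency with which each sequence was ligated and amplified, which was not measured.

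The endothelial guide strand miR-126-3p was counted 297696 times in replicate 2 and 313837 times in replicate 8, which gives 112226 ± 4003 CPM (SD, n = 2). It held rank 1 of all names in both libraries. The names next below it were miR-100-5p at 86879 ± 7489 CPM and miR-21-5p at 77353 ± 9974 CPM. Its count exceeded that of miR-100-5p by 1.34-fold in replicate 2 and by 1.25-fold in replicate 8. The strand miR-126-5p, a miRNA in its own right that supports endothelial proliferation through DLK1, had 1930 and 1850 counts, or 694 ± 21.9 CPM, and ranked 102 in both libraries. In each library this minor strand lay above every arm of the other 3 hairpins.

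Reads of the hypoxia-linked miR-210 numbered 1313 in replicate 2 and 1098 in replicate 8, or 443 ± 56.5 CPM (SD, n = 2). It ranked 118 and 127. The count of miR-126-3p was 227-fold higher in replicate 2 and 286-fold higher in replicate 8. Names of closest mean level were miR-26b-5p at 463 ± 6.48 CPM and miR-502-3p at 448 ± 21.8 CPM above it, and miR-409-3p at 429 ± 21.9 CPM and miR-760 at 424 ± 97.5 CPM below it. None of these 4 lay further from miR-210 than the SD of miR-210 itself.

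For the RASA1 repressor miR-132-3p there were 797 counts (replicate 2) and 1133 counts (replicate 8), or 354 ± 86.6 CPM (SD, n = 2), with ranks of 149 and 126. Around it in mean level stood miR-2110 at 358 ± 97.4 CPM, miR-5100 at 355 ± 154 CPM, miR-92b-5p at 352 ± 78.2 CPM and miR-484 at 349 ± 69.4 CPM. Of these miR-5100 was also higher in replicate 8, and the other 3 had fewer counts there. Its partner strand miR-132-5p had 292 and 368 counts, or 121 ± 19.5 CPM. From the neighbouring hairpin, miR-212-5p had 73 and 97 counts, or 31.2 ± 6.18 CPM, and miR-212-3p had 67 and 76 counts, or 26.2 ± 2.29 CPM. Names of closest level to miR-212-5p were miR-409-5p and miR-505-5p, both at 31.4 CPM, and miR-149-5p and miR-495-3p, both at 30.6 CPM. For miR-212-3p the Wilson interval (95%) ran from 19.4 to 31.3 CPM on the counts of replicate 2 and from 22.3 to 34.9 CPM on those of replicate 8, and these overlap.

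The order of the arms by count was the same in both libraries except in 1 place, and in a further place it was resolved in neither library. Between miR-210 and miR-132-3p the order by count turned. In replicate 2 miR-210 was 1.65-fold higher (exact 95% interval 1.51 to 1.80). In replicate 8 the ratio was 0.97 (0.89 to 1.05), an interval that contains 1, so the turned order there was not resolved. Their mean levels differed by less than the combined SD. Between miR-212-5p and miR-212-3p the order was kept, with a ratio of 1.09 in replicate 2 (0.77 to 1.54) and 1.28 in replicate 8 (0.94 to 1.75), but both intervals contain 1 and the means again lay within the combined SD. The remaining 4 pairs of neighbours had intervals above 1 in both libraries. The closest of those was miR-126-5p over miR-210, by 1.47-fold (1.37 to 1.58) and 1.68-fold (1.56 to 1.82). These intervals cover counting error only, since the labels mention no molecular identifiers.

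**Figure D1:**
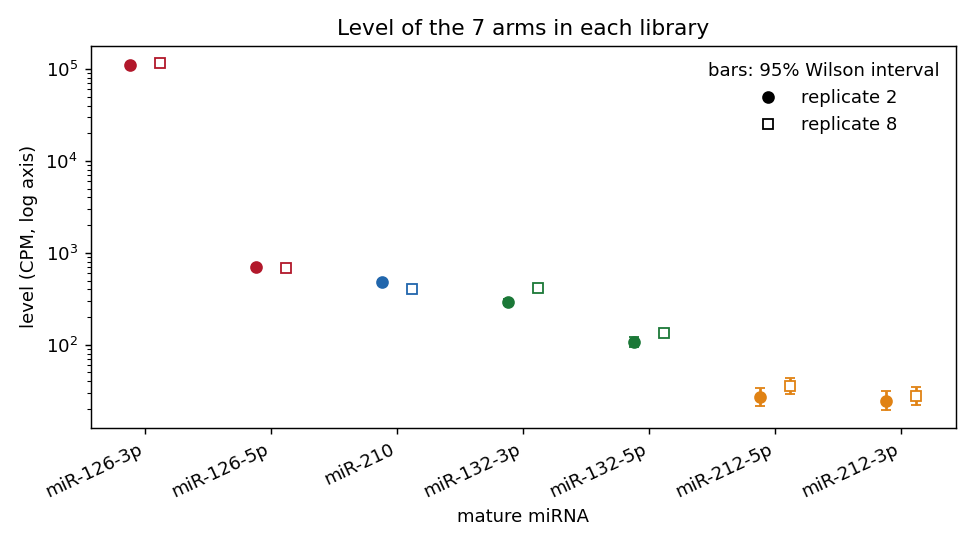
Level of each of the 7 arms (CPM, log axis) in replicate 2 (filled circles) and replicate 8 (open squares), with 95% Wilson intervals, which for most points are smaller than the symbol. The arm miR-126-3p stands at 112226 CPM on average and the next, miR-126-5p, at 694 CPM. By count miR-210 and miR-132-3p change places between the libraries, though their order in replicate 8 is not resolved.

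The members differed in how closely the libraries matched. The SD of miR-126-3p was 3.57% of its mean and that of miR-126-5p 3.16%, against 12.8% for miR-210, 24.5% for miR-132-3p, 16.1% for miR-132-5p, 19.8% for miR-212-5p and 8.74% for miR-212-3p. Counting error alone would give 0.18% for miR-126-3p, 2.88% for miR-210 and 3.22% for miR-132-3p, all well under the spread seen. For miR-212-3p it would give 11.8%, more than was seen, so the spread of that arm was not detectable over counting error at this depth.

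By a two-sided exact binomial test on the counts, adjusted by Benjamini-Hochberg over 695 miRNAs with at least 10 summed counts, 4 of the 7 arms differed between the libraries, of which 3 were higher in replicate 8 and 1 was lower. The test compares 2 libraries and not conditions. It called 34.2% of all names tested and 54.8% of those with at least 100 summed counts, which all 7 arms have, so 4 of 7 is close to the background. Over all names 75 of the calls were higher in replicate 8 and 163 lower with total counts as the library size, and 105 were higher and 119 lower with TMM-scaled sizes. The median log2 ratio was 0.18 over the 7 arms and -0.11 over all names tested. Size factors from DESeq2 raise every ratio by 0.11, and TMM-scaled sizes by 0.09.

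The CREB-linked miR-132-3p had the largest difference of the set. On the log2 scale it was higher in replicate 8 by 0.50 (95% interval 0.37 to 0.64, adjusted p = 3.4e-13 by the exact binomial test), and 81.5% of the 367 names with at least 100 summed counts had a smaller difference in either direction. The other strand, miR-132-5p, was also higher in replicate 8, by 0.33 (0.10 to 0.56, adjusted p = 0.012, exact binomial). The 2 arms of hsa-mir-212 had log2 ratios of 0.40 (-0.05 to 0.87, adjusted p = 0.18, exact binomial) for miR-212-5p and 0.18 (-0.31 to 0.67, adjusted p = 0.67, exact binomial) for miR-212-3p. Neither passed the threshold, and both intervals contain the values of the miR-132 arms. Summed over both arms, hsa-mir-132 went from 400 CPM to 550 CPM and hsa-mir-212 from 51.4 CPM to 63.4 CPM.

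In the other direction miR-210 was lower in replicate 8, at -0.26 on the log2 scale (-0.38 to -0.14, adjusted p = 6.0e-05, exact binomial). On the CPM scale it dropped by 16.6%, and 55.0% of the names with at least 100 summed counts differed by less. The size depended on the scaling: the log2 ratio was -0.17 with TMM-scaled sizes (adjusted p = 0.012, exact binomial) and -0.15 with DESeq2 size factors (adjusted p = 0.040, exact binomial). For miR-126-3p the ratio was 0.07 (0.07 to 0.08, adjusted p = 4.2e-85, exact binomial), a difference of 5.18%. With total counts as the library size, 16.3% of the names with at least 100 summed counts differed by less. The ratio was 0.16 with TMM-scaled sizes and 0.19 with DESeq2 size factors, both outside that interval, which holds counting error and not the choice of scaling. The ratio of miR-126-5p was -0.06 (-0.16 to 0.03, adjusted p = 0.32, exact binomial), which did not pass, and it was 0.022 with TMM-scaled sizes and 0.049 with DESeq2 size factors, so its direction depended on the scaling.

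**Figure D2:**
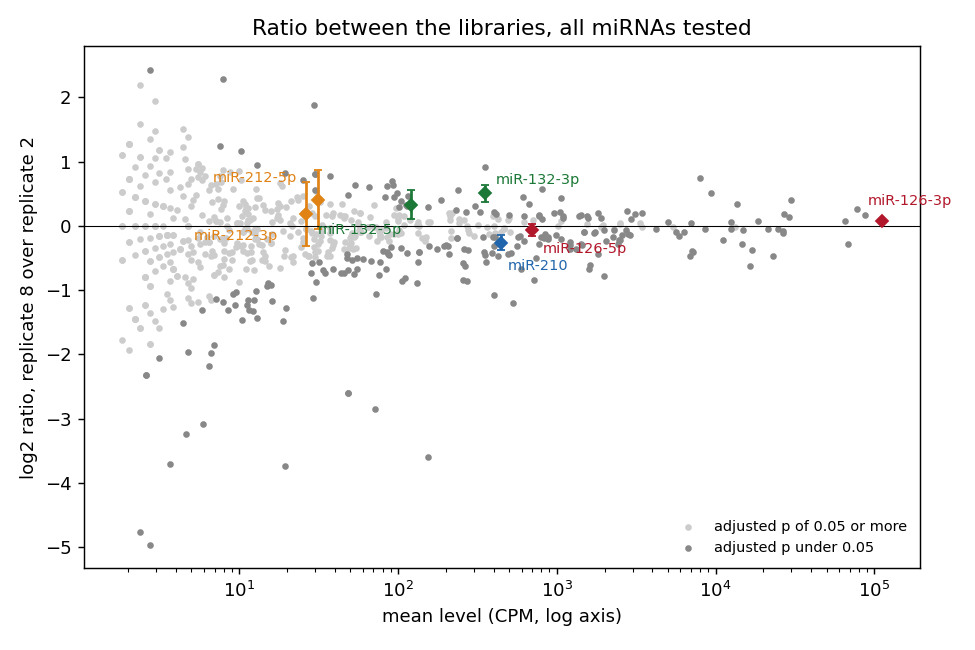
Log2 ratio of replicate 8 over replicate 2 against mean level (CPM, log axis) for the 695 miRNAs tested, dark grey where the exact binomial adjusted p was under 0.05 and light grey elsewhere; coloured diamonds are the 7 arms with their 95% exact intervals. The arms lie between -0.26 for miR-210 and 0.50 for miR-132-3p, within the range of the other miRNAs tested.

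The 3 hairpins with both arms in the table were divided in 3 different ways. Arm usage is the share of counts from the 5p strand among the counts of both strands, and needs no library scaling. For hsa-mir-126 the 3p strand was nearly the whole, and its 5p share was 0.64% (0.62 to 0.67, Wilson) in replicate 2 and 0.59% (0.56 to 0.61) in replicate 8. For hsa-mir-132 the 3p strand was the major one by 2.73-fold and 3.08-fold, and the 5p share was 26.8% (24.3 to 29.5) and 24.5% (22.4 to 26.8). For hsa-mir-212 neither strand dominated, with a 5p share of 52.1% (43.9 to 60.2) and 56.1% (48.6 to 63.3). Intervals of the 3 hairpins did not overlap in either library.

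Shares were set beside those of 212 hairpins whose arms together reached 50 counts in replicate 2 and in replicate 8, and hsa-mir-212 stood among the most evenly divided. Its minor strand held 45.9% of the counts on average, and only 6 of the 212 hairpins had a larger minor share. The 212 include hairpin copies with shared counts, such as hsa-mir-9-1, hsa-mir-9-2 and hsa-mir-9-3, each counted separately. For hsa-mir-132 the minor share was 25.7%, and 29 hairpins, or 13.7%, had a larger one. The minor share of hsa-mir-126, 0.62%, was below the median of 3.51%, and 145 hairpins had a larger one. Since ligation can favour 1 strand, these shares describe the libraries and not the duplexes in the cell.

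Arm shares were compared between the libraries by Fisher's exact test, adjusted over the same 212 hairpins, of which 18.9% were called. Among the 3 member hairpins hsa-mir-126 was called, with a change of -0.058 percentage points in its 5p share from replicate 2 to replicate 8 (Fisher's exact adjusted p = 0.022). The median change over all hairpins was larger, at 0.76 points in either direction, but a 5p share of 0.64% cannot fall by that much. As odds of the 5p strand, replicate 8 was 0.91-fold replicate 2 for hsa-mir-126, 0.89-fold for hsa-mir-132 and 1.17-fold for hsa-mir-212. The shares of hsa-mir-132 (Fisher's exact adjusted p = 0.46) and hsa-mir-212 (Fisher's exact adjusted p = 0.82) moved by -2.30 and 3.93 points and did not pass.

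**Figure D3:**
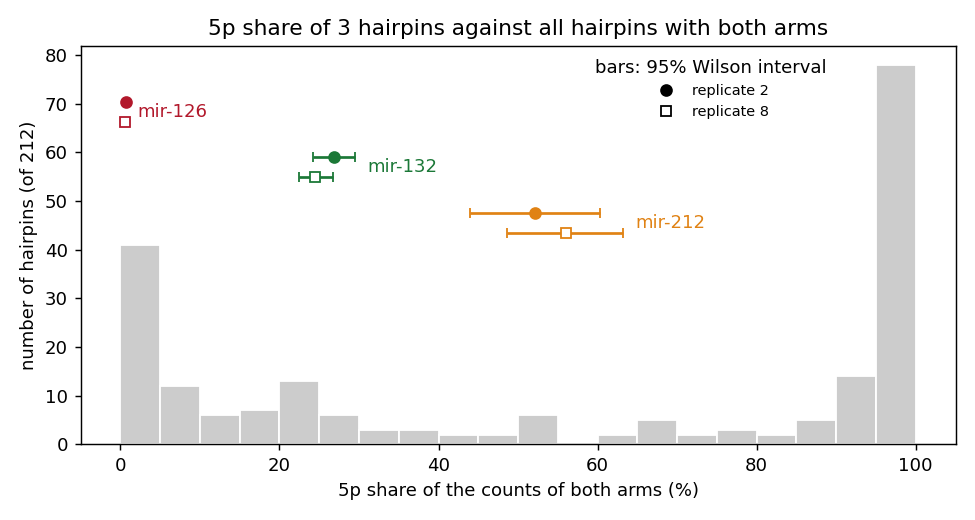
Histogram of the mean 5p share (%) of the 212 hairpins with both arms measured, with hsa-mir-126, hsa-mir-132 and hsa-mir-212 drawn over it in replicate 2 (filled circles) and replicate 8 (open squares) with 95% Wilson intervals; the height of these symbols has no meaning. Most hairpins lie at either end, as hsa-mir-126 does, whereas hsa-mir-212 lies near the middle, at 54.1% on average.

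The first base of a strand bears on its uptake, since Argonaute proteins are known to favour a 5′ uridine. Of the 7 arms 3 begin with U, namely miR-126-3p, miR-132-3p and miR-212-3p, the 3p strands of the hairpins with both arms measured, while their 5p strands begin with C or A. Of 185 hairpins whose arms both had a RefSeq sequence, the major strand began with U in 56.8% and the minor strand in 22.2%. Both hsa-mir-126 and hsa-mir-132 follow that majority. For hsa-mir-212 the major strand was not resolved. Its miR-212-5p, which begins with A, had 73 and 97 counts against 67 and 76 for its 3p strand. This is a description of sequences and counts, and no test of it was made.

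The hairpins of miR-132 and miR-212 can be cut from 1 transcript, yet their products were unequal. The count of miR-132-3p exceeded that of miR-212-3p by 11.9-fold in replicate 2 (exact 95% interval 9.26 to 15.5) and by 14.9-fold in replicate 8 (11.8 to 19.1). For the 5p strands the ratio was 4.0 (3.09 to 5.24) and 3.79 (3.03 to 4.8), so the intervals of the 3p and the 5p ratio did not overlap in either library. With both strands summed the ratio was 7.78 and 8.68. Of 3 tests of whether such a ratio changed between the libraries none passed: Fisher's exact p was 0.22 for the 3p strands, 0.80 for the 5p strands and 0.36 for their sum, with Benjamini-Hochberg values over the 3 of 0.55, 0.80 and 0.55. Strands that share a seed can reach the same target sites, so the levels of miR-132-3p and miR-212-3p were also added. Their sum was 317 CPM (replicate 2) and 443 CPM (replicate 8), of which miR-132-3p made up 92.2% and 93.7%.

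The set was placed among 33 other miRNAs known from angiogenesis and endothelium, of which 32 were detected. Their median level was 1048 CPM over the 33, against 49.9 CPM over all 543 detected names. None of the 33 lay above miR-126-3p. The highest were miR-21-5p at 77353 ± 9974 CPM, miR-24-3p at 28917 ± 2045 CPM and let-7b-5p at 24621 ± 504 CPM. Of the 33, 19 lay above miR-210 and above miR-132-3p, and 28 above miR-212-5p. The lowest were miR-424-5p at 15.2 ± 6.51 CPM, miR-218-5p at 12.1 ± 3.13 CPM and miR-214-3p at 4.59 ± 5.46 CPM. Of the 33 listed, 8 were called higher in replicate 8 and 16 lower, with a median log2 ratio of -0.08. Over all names the share called was 34.2%, and it was 54.8% with at least 100 summed counts, so calls are more frequent among abundant names such as most of these.

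Of 12 other miRNAs linked to hypoxia, 6 lay above miR-210, and 9 were detected. The median level of the 12 was 468 CPM. Their highest members were miR-21-5p, miR-24-3p and miR-26a-5p, the last at 18637 ± 705 CPM. The lowest were miR-20b-5p with 15 and 11 counts, miR-429 with 13 and 0 counts, and miR-373-3p with 0 and 3 counts, where 3 counts stand for 1.10 CPM, the level that a count of 0 allows. Of the 11 with enough counts to test, 5 were called higher in replicate 8 and 4 lower, beside the same background of 34.2% and 54.8% called, with a median log2 ratio of -0.17. The names miR-21-5p, miR-23a-3p, miR-24-3p, miR-155-5p and miR-424-5p are on both lists.

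**Figure D4:**
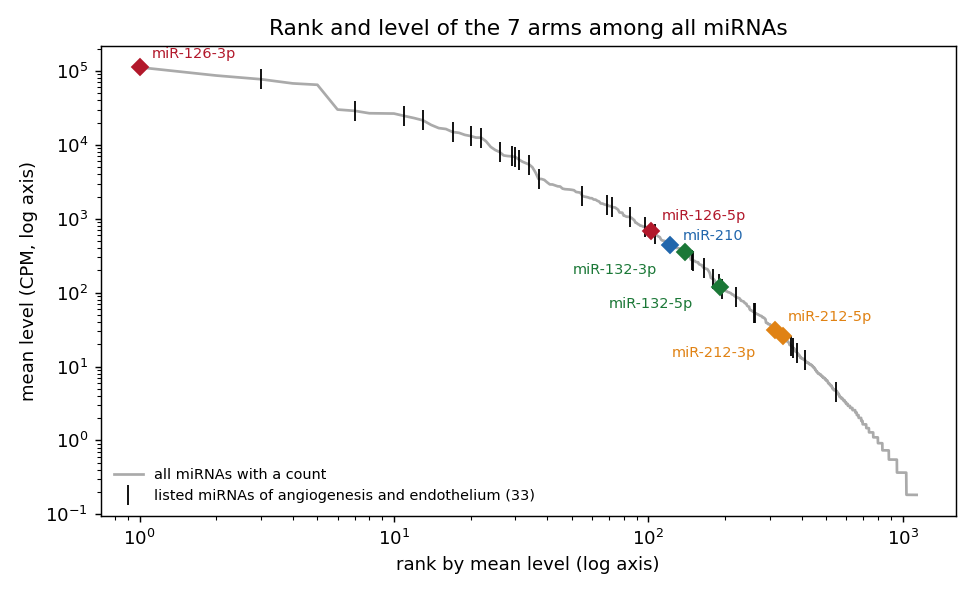
Mean level (CPM, log axis) against rank (log axis) for all miRNAs with a count (grey line), with the 7 arms as coloured diamonds and the 33 listed miRNAs of angiogenesis and endothelium as black ticks. The arm miR-126-3p holds rank 1, and the other 6 arms lie between ranks 102 and 339.

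Markers of other cell types were low beside miR-126-3p, though several were at the level of other members. The highest, the mural cell marker miR-143-3p, was at 735 CPM in replicate 2, above miR-126-5p at 709 CPM. In replicate 8 it was at 319 CPM, below miR-210 at 403 CPM, a log2 ratio of -1.20 between the libraries. The mural cell pair, miR-143-3p and miR-145-5p, had a summed level of 835 CPM (replicate 2) and 393 CPM (replicate 8). Both were called lower in replicate 8, as were 163 of the 695 names tested with total counts as the library size. Of 6 blood cell markers 3 had no count in either library, namely miR-144-3p, miR-142-3p and miR-223-3p. The other 3 were miR-486-5p at 258 ± 71.8 CPM, miR-150-5p at 206 ± 31.2 CPM and miR-451a at 11.4 ± 6.25 CPM. The 6 summed to 553 and 399 CPM. The neuronal pair summed to 44.1 and 34.1 CPM, and the 3 muscle markers to 12.1 and 9.17 CPM. The 4 epithelial markers summed to 53.7 and 31.2 CPM, with miR-200c-3p highest at 37.3 ± 8.63 CPM and miR-141-3p at 0. The liver marker miR-122-5p was at 235 and 252 CPM. All of these sums but the liver marker were lower in replicate 8, where the median log2 ratio over all names tested was -0.11. All 3 blood markers with enough counts to test were called lower in replicate 8, as were 2 of the 3 epithelial markers tested. Only 1 neuronal and 2 muscle markers could be tested, and none of these was called, nor was the liver marker. Over all names tested 34.2% were called, and 54.8% of those with at least 100 summed counts. Any part of other cell types in the differences of miR-210 and miR-132-3p was not tested.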

How the data were processed

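Small RNA reads of 2 hCMEC/D3 libraries were analysed from the authors' deposited table of raw counts and RPM (reads scaled to a common library total) for each pair of mature name and precursor. Per the submitters' processing notes CASAVA 1.9, FastQC, cutadapt and Bowtie 0.12.7 were used with hg19; the counter and the miRBase release are not given in the sources used here. Per the labels' protocols adaptors were ligated to both RNA ends, libraries were amplified by PCR and the miRNA fraction was cut from a gel. Of 2363 rows the one with the highest mean count was kept for each of 2042 mature names, and CPM used totals over these rows. No second group exists, so no quasi-likelihood test of conditions could be made. Library differences used a two-sided exact binomial test with Benjamini-Hochberg adjustment over all names with at least 10 summed counts and a threshold of 0.05, and log2 ratios with 0.5 counts added. Arm shares used Fisher's exact test over all hairpins with at least 50 counts in each library. Both tests were tested on simulated counts with counting error only, and with arm shares less extreme than that of hsa-mir-126. The simulation therefore does not cover spread between libraries beyond counting error. TMM sizes came from edgeR 4.0.16, size factors from DESeq2 1.42.0 and tests from scipy 1.17.1. Intervals are 95% and cover counting error only. Sequences are from RefSeq (GRCh38.p14), with names matched for 7 of 7 arms, and positions and annotation from GRCh37 and GENCODE. Named beside the members were the 2 names above and below a main arm in level, names sharing its seed, and the 3 highest and lowest of each list. The members, lists and tests were chosen with earlier results of these data known.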

Additional observations from a re-analysis of the deposited data

How the results depend on the processing

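Levels follow the denominator by construction. On the deposited RPM scale the level was 95756 for miR-126-3p, 592 for miR-126-5p, 378 for miR-210 and 22.4 for miR-212-3p; with the total over all rows it was 96107, 594, 379 and 22.5 CPM. With miR-126-3p left out of the total, miR-126-5p was at 781 CPM and miR-212-3p at 29.6 CPM. The ratio of miR-132-3p to miR-212-3p, 13.4 on average, was 8.23 with both arms summed, because the 5p ratio is smaller. The log2 ratio of miR-126-5p turned from -0.06 to 0.022 with TMM-scaled sizes and 0.049 with DESeq2 size factors. The other 102 recomputed values, among them those without replicate 2 or replicate 8, kept their direction and call or moved by less than 1 SD; with 2 libraries, leaving out either cannot move a mean by more. The same count of 4 arms was called under all 7 alternatives tried for that count. No paired analysis was possible because there is 1 group. With 2 libraries and no second group, the spread of each level rests on a single difference, and for the miR-212 arms the counts limit the precision.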
